A study of Mus musculus with 6 samples.

Results

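The whole span of CD8 lineage maturation in the thymus of N15 mice was measured by setting 2 microarrays of CD8 single-positive (CD8SP) thymocytes against 2 arrays of double-positive (DP) thymocytes, chosen by the stage named in their titles. These are 4 of the 6 arrays of the series; the other 2 hold CD4intCD8+ cells, with intermediate surface CD4, and are used here to place that stage on the span and to share the estimate of spread. Of 18193 genes on the array, 10916 were bright enough to be tested. Both stages came from the same strain: mice of the N15 TCR tg+/+ RAG-2-/- genotype on an H-2b background, which carry 1 rearranged T cell receptor as a transgene and cannot rearrange further receptor genes. Per the labels, cells of 6 mice aged 5 to 6 weeks, matched for age and sex, were sorted on surface CD4 and CD8 for 2 independent experiments. No antigen or drug was given, and the sorting gate is the only difference between DP and CD8SP cells that the labels name. The replicate number in the title was taken as the pairing of a DP with a CD8SP array. Which animals gave which array is not stated beyond these experiments, so a p-value here measures only array-to-array spread, which may be technical. The promoter that drives the transgene is not stated in the labels.

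DP thymocytes carry both coreceptors, are mostly not dividing and in normal mice still rearrange their T cell receptor alpha genes. Cells whose receptor binds self peptide on MHC class I weakly are positively selected, shut off CD4, Rag genes and the DP programme, and become CD8 cells. Before leaving the thymus they take up receptors for exit and survival, such as S1pr1, Ccr7 and Il7r, under factors such as Klf2 and Foxo1. In a mouse with a single transgenic receptor, selection proceeds in many cells that share one specificity.

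The labels were first set against the genes that define the stages. The Cd4 probe read 351 and 515 intensity units on the DP arrays and -65.8 and -68.6 on the CD8SP arrays. Values below 0 point to a subtracted background, but how the deposited values were made is not stated. Cd4 was present in DP and gave no signal above 0 in CD8SP. Cd8a, 1 chain of the CD8 coreceptor, read 3153 and 3566 in DP and 1794 and 1608 in CD8SP, and Cd8b1, the other chain, read 3601 and 3814 in DP and 2448 and 2144 in CD8SP. Both CD8 chains therefore stayed bright in CD8SP cells but at a lower level than in DP cells. Rag2, the gene disrupted in these mice, read 137 and 193 in DP and 2.06 and 17.4 in CD8SP. Whether the probe lies within the deleted stretch is not known here, and every array comes from Rag2-deficient mice, so this signal checks no label. Among the anchor genes of mature cells, Ccr7, S1pr1 and Klf2 were higher on each CD8SP array than on each DP array.

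Arrays were on a common scale, with median intensities between 24.9 and 25.7 and between 2.78% and 4.33% of values below 0. Across genes, which are not independent replicates, r between replicates was 0.983 in DP and 0.978 in CD8SP. The ratio of 3' to 5' signal of the actin control, a sign of RNA integrity or of labelling, was 1.98 and 2.14 in DP and 2.28 and 2.62 in CD8SP and thus moved with stage. It was 2.37 and 3.47 in CD4intCD8+, where replicate 2 stood apart from all other arrays, also on the second principal component (-23.4, against -5.41 to 17.3). Its part in the results was not tested beyond a fit with the ratio as a covariate, which called 2198 genes.

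Of the genes tested, 2166 (19.8%) differed between CD8SP and DP at an adjusted p under 0.05 (limma, Benjamini-Hochberg over all genes tested): 1255 (11.5%) were higher in CD8SP and 911 (8.35%) were lower. The median size of a called change was 0.77 on the log2 scale. At least 2-fold changes were made by 419 rising genes (3.84%) and 208 falling genes (1.91%), at least 4-fold changes by 58 and 27, and at least 8-fold changes by 15 and 7. The median over all genes tested was 0.01. The difference was also taken within each replicate pair. Across all genes tested, the log2 changes of pair 1 and pair 2 correlated at r = 0.78 and had the same sign for 74.8% of genes. The pairs share no array, but all arrays share probes and scaling, and whether the arrays of a pair come from 1 experiment is not stated. All 2166 called genes had the same sign in both pairs, and 458 were at least 2-fold changed in each. The pairs use the same arrays as the calls, and the 2 stages overlapped for none of the called genes. Lack of overlap by itself fixes the sign in both pairs, so the shared sign adds no support to the calls. Without overlap between the arrays of the 2 stages, 3538 genes (32.4%) were higher and 3175 (29.1%) lower, so lack of overlap alone is common here. With the replicate number as a block, 3277 genes were called, among them all 2166, with 1427 in place of 911 falling. Fewer calls were made when 1 DP or CD8SP array was left out, and more when 1 CD4intCD8+ array was left out. Leaving out each of the 6 arrays in turn, 722 genes were called every time, 439 up and 283 down. Another probe of the same gene with a mean intensity of at least 30 was on the array for 959 called genes, and every such probe moved the same way for 829 of them.

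**Figure D1:**
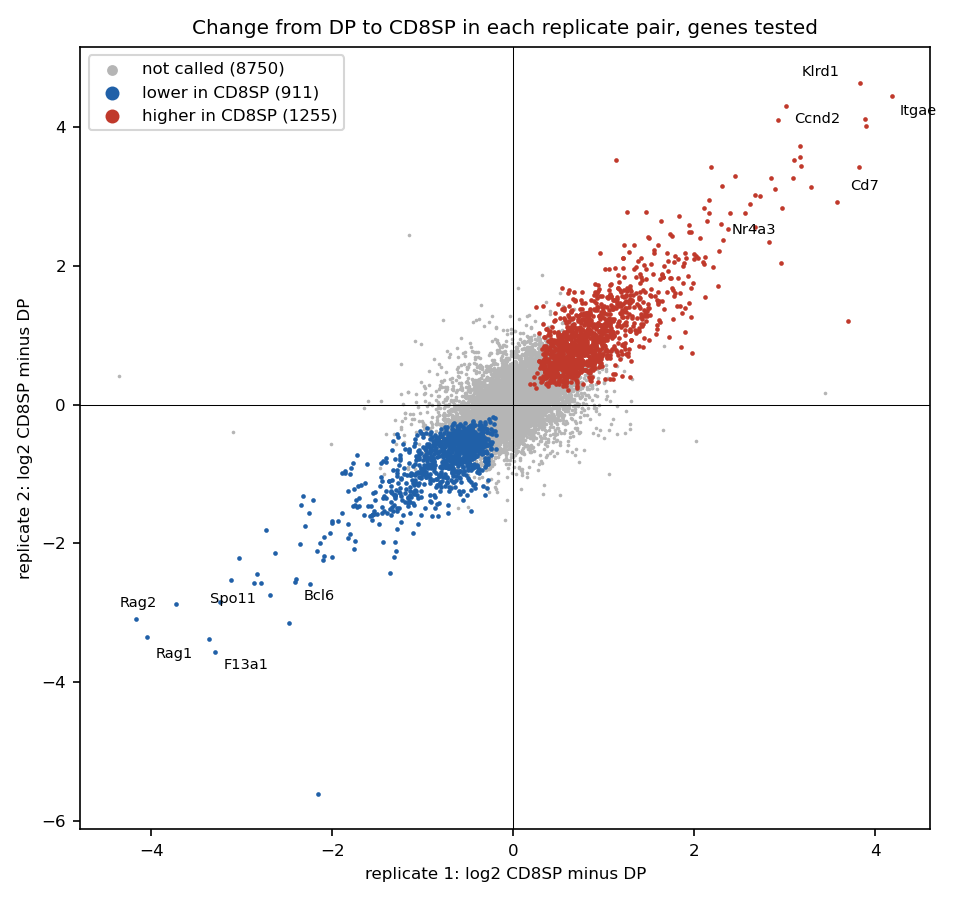
Each point is 1 of the 10916 genes tested; the x axis is the log2 change from DP to CD8SP between the replicate 1 arrays and the y axis the same between the replicate 2 arrays. Red points are the 1255 genes called higher in CD8SP and blue points the 911 called lower; both colours lie in the quadrants where the pairs have the same sign, with Itgae and Klrd1 at the upper right and Rag1 and Rag2 at the lower left.

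The gene with the largest rise above a measurable DP level was Itgae, the CD103 chain of the integrin that binds E-cadherin on epithelium. Itgae read 61.3 and 41.6 in DP and 1211 and 1029.8 in CD8SP, a log2 change of 4.31 ± 0.20 (SE; limma adjusted p = 2.23e-05), and its second probe changed by 5.08. Ccnd2, the D-type cyclin D2, read 123 and 87.0 in DP and 1906 and 1614 in CD8SP (4.01 ± 0.23). Cd7, an immunoglobulin superfamily receptor of T and NK cells, read 39.2 and 35.2 in DP and 629 and 437 in CD8SP (3.62 ± 0.18). For each of these genes the lowest CD8SP array lay far above the highest DP array. Lack of overlap was itself a condition for the leading genes, so only the size of the gap is informative. Nkg7, a protein of cytotoxic granules, read 164 and 123 in DP and 1250.1 and 1105 in CD8SP (SE 0.24 on the log2 scale; 2.89 in pair 1 and 3.11 in pair 2), and Ctsw, the cathepsin of cytotoxic lymphocytes, read 167 and 143 in DP and 1351 and 1055 in CD8SP (2.90 ± 0.25). Smad7, an inhibitor of TGF-beta signalling, rose from 52.5 and 26.0 to 314 and 309 (2.88 ± 0.28). Ctss, a lysosomal cathepsin, rose from 161 and 97.1 to 1058 and 829.8 (2.85 ± 0.24). The other rises among the first 10 were Igfbp4, which binds insulin-like growth factors (3.25 ± 0.20), Rflnb (3.18 ± 0.30) and Rcn1 (2.87 ± 0.27). The other probes of Igfbp4 ranged from 0.20 to 3.59, so its size depends on the probe.

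The largest fall to a measurable CD8SP level (a mean of at least 20) was that of Rag1, the recombinase partner of Rag2. Rag1 read 1046 and 1054 in DP and 57.8 and 97.9 in CD8SP, a log2 change of -3.70 ± 0.23 (limma adjusted p = 4.15e-05). F13a1, the A chain of coagulation factor XIII, read 525 and 566 in DP and 48.3 and 42.3 in CD8SP (-3.43 ± 0.15). Spo11, known for the DNA breaks of meiotic recombination, read 259 and 201 in DP and 24.6 and 29.96 in CD8SP (-2.82 ± 0.18). In each of these the stages were separated by several-fold on every array. Bcl6, a transcriptional repressor, fell from 606 and 601 to 109.6 and 101 (-2.46 ± 0.14). Ldhb, the heart-type lactate dehydrogenase subunit, fell from 1674 and 2006 to 349 and 329.9 (-2.41 ± 0.13), and its 3 other probes changed by between -2.53 and -2.27. Mr1, the molecule that presents vitamin B metabolites to MAIT cells, fell from 186 and 137 to 21.1 and 20.5 (-2.64 ± 0.20). The remaining falls were Wdr78 (-2.71 ± 0.18), Tmcc3 (-2.68 ± 0.18), Aqp11, an aquaporin (-2.62 ± 0.36), and Fbxl12, an F-box protein (-2.48 ± 0.13). The other probe of Wdr78 changed by -0.10. All 20 of these leading genes kept their call when any 1 array was left out.

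**Figure D2:**
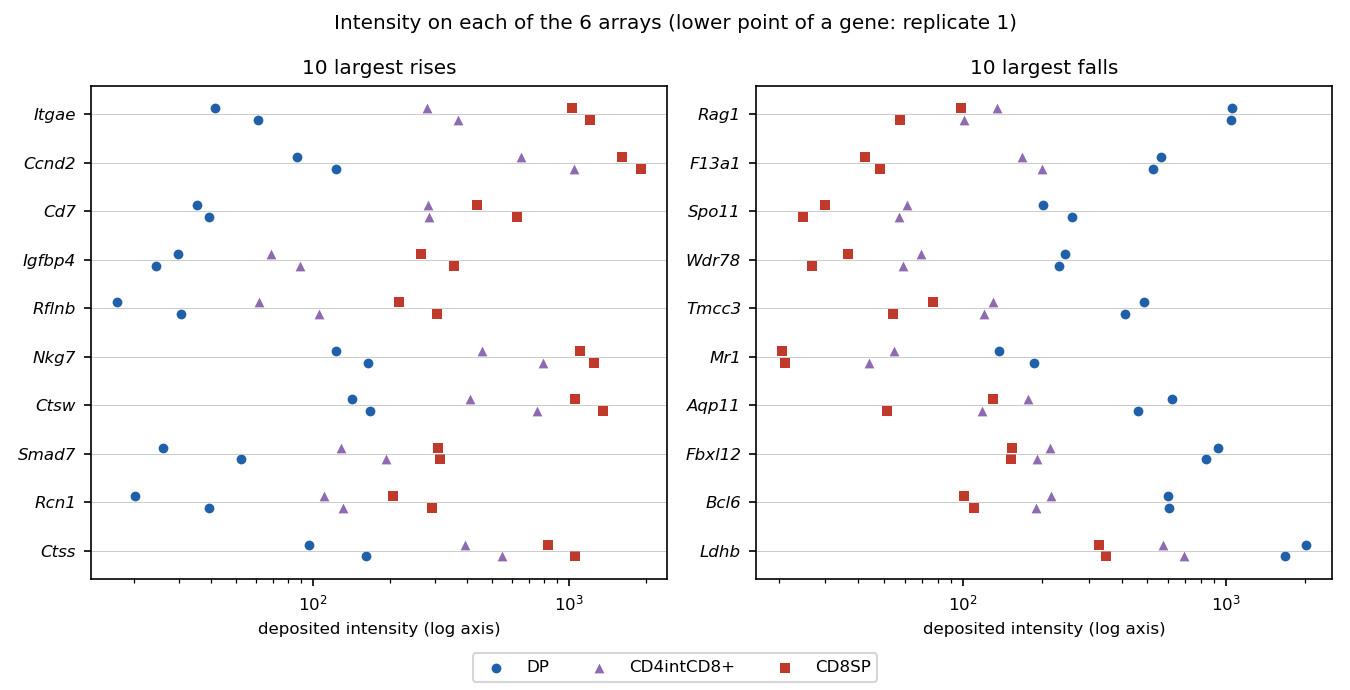
Deposited intensity (log axis) of the 10 genes with the largest rises and the 10 with the largest falls on all 6 arrays, with DP as circles, CD4intCD8+ as triangles and CD8SP as squares; each point is 1 array. In every row the circles and squares do not overlap, which was a condition for choosing these genes. The triangles lie between them except for Aqp11, where a triangle at 118 lies below a square at 129.5.

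A further set of genes was near background at 1 stage, so that no fold is given. Klrd1, the CD94 chain of NK receptors, read 13.9 and 13.7 in DP and 275 and 485 in CD8SP. Il2rb, the beta chain shared by the receptors for interleukin-2 and interleukin-15, read 13.8 and 12.1 in DP and 173 and 189 in CD8SP. Atp8b4, a phospholipid flippase, read 17.8 and 17.4 in DP and 207 and 269.7 in CD8SP. The DP values were near the level of the dimmest probes while the CD8SP values were clear. Clcf1, a cytokine of the interleukin-6 family, went from 10.1 and 12.4 to 151 and 155, Lcn4 from 11.9 and 7.36 to 122 and 121, and Trpm1, a cation channel, from 8.94 and 2.77 to 215 and 135. Other probes of Clcf1 changed by between 0.43 and 3.95 and the other probe of Trpm1 by 0.50. These were sought among all 18193 genes, and had to be called in the fit without the brightness limit and not to overlap between stages. In all, 13 such genes had a DP mean under 20 and a CD8SP mean of at least 100, and 11 the reverse. Plxnd1, the plexin that steers thymocytes from cortex to medulla, read 219 and 171 in DP and 5.57 and -1.28 in CD8SP. Dhrs3, a retinal reductase, read 84.4 and 124 in DP and 0.693 and -1.91 in CD8SP. Wnt8b, a Wnt ligand, read 102 and 148 in DP and 13.5 and 11.6 in CD8SP. These genes, like Cd4, were clear in DP and near or below background in CD8SP. Tctex1d1 (145 and 189 in DP, 8.82 and 12.9 in CD8SP) and Ankrd6 (135 and 158 in DP, 9.02 and 17.1 in CD8SP) complete the 6 with the smallest p in that direction.

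The DP stage programme, a list of 22 genes typical of DP thymocytes, fell almost as a whole: 15 of its 16 tested members were lower in CD8SP and 0 were higher (0 also at an unadjusted p under 0.05, limma), with a median log2 change of -1.30 against 0.01 for all genes. This is a called share of 93.75%, beside 19.8% of all genes tested. Members that fell included Rag1, Aqp11 and Bcl6, described above, and Ets2, an Ets family factor (1691 and 1915 in DP, 416 and 413 in CD8SP; -2.10 ± 0.11). Rag2 was also called lower but was near background in CD8SP, so no fold is given. Ccr9, the receptor for the thymic chemokine Ccl25, fell from 4368 and 4220.4 to 2308 and 1933 (-1.02 ± 0.09). Cd24a, a surface glycoprotein lost on mature T cells, went from 2067 and 1869.8 to 1295 and 1258 (-0.62 ± 0.09). Ccr9 and Cd24a thus stayed bright while Rag2 neared background. The member that did not pass the test was Ptcra, the pre-T cell receptor alpha chain, which read 41.4 and 49.9 in DP and 37.9 and 111 in CD8SP (0.48 ± 0.49, adjusted p = 0.54). Its CD8SP arrays lay on either side of DP. Beside this list, markers of earlier double-negative thymocytes gave 1 rise and 1 fall among 4 tested, a share of 50%. Notch3 fell (-0.996 ± 0.16) and Hhex rose (1.12 ± 0.24). Hhex lost its call without DP replicate 2 and without CD8SP replicate 1 (highest adjusted p = 0.087). In bulk samples such as these, fewer cells of a type and less RNA per cell cannot be told apart.

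Genes of maturation and thymic exit rose: of 19 tested, 13 were higher and 2 lower in CD8SP, with a median of 1.12, and these counts were the same with any 1 array left out. S1pr1, the receptor that follows sphingosine-1-phosphate out of the thymus, read 42.8 and 18.6 in DP and 209 and 148 in CD8SP (2.40 ± 0.32, adjusted p = 0.00122). Il7r, the interleukin-7 receptor alpha chain, read 28.8 and 24.2 in DP and 152 and 318 in CD8SP (2.81 ± 0.30). Klf2, a factor that drives S1pr1, read 676 and 351 in DP and 1717 and 1755 in CD8SP (1.82 ± 0.32). The stages did not overlap for any of these genes, as for all called genes, although the DP arrays of Klf2 and S1pr1 were themselves well apart, with replicate 1 higher. Dapl1 read 15.0 and 17.8 in DP and 153 and 399.9 in CD8SP, and Slfn1, a Schlafen family gene, 20.6 and 6.90 in DP and 222 and 141 in CD8SP. Dapl1, Slfn1 and Il7r were dim in DP and passed the brightness limit through their later stages. This favours rises in the list and a higher median, and the limit was not redone when an array was left out. Of the tested members 78.9% were called, beside 19.8% of all genes tested. Ccr7, the receptor that draws cells to the medulla, rose from 139 and 73.2 to 496 and 343 (1.97 ± 0.33). The 2 members that fell were Ifngr1, an interferon-gamma receptor chain (1223 and 1176 in DP, 364 and 419 in CD8SP; -1.60 ± 0.12), and Ramp1 (-0.94). Foxo1 rose by 0.93 and Bcl2 by 1.12. Cd69, an activation marker that holds cells in the thymus, did not pass the test: it read 470.4 and 359.6 in DP and 512 and 336 in CD8SP (0.01 ± 0.24, adjusted p = 0.98), with overlapping stages.

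Among migration receptors, 4 of 8 tested rose (S1pr1, Ccr7, S1pr4 and Gpr18) and Ccr9 fell, a share of 62.5%, with a median of 1.26. S1pr4, a second sphingosine-1-phosphate receptor, read 172 and 188 in DP and 539 and 444 in CD8SP (1.41 ± 0.17), and Gpr18, a lipid receptor, 148 and 148 in DP and 511 and 487 in CD8SP (1.72 ± 0.20). A second fall was called with the replicate block (5 rises and 2 falls) and without CD4intCD8+ replicate 1, CD4intCD8+ replicate 2 or CD8SP replicate 1. Ccr4, below the brightness limit, read 27.8 and 20.9 in DP and 11.4 and 10.03 in CD8SP (adjusted p = 0.11 in the fit without that limit). Guidance molecules showed 1 rise and 2 falls of 12, a share of 25% beside the 19.8% of all genes tested, with a median of -0.04 and 2 rises with the replicate block or without either CD4intCD8+ array. Ephb6, an Eph receptor without kinase activity, fell from 145 and 156 to 31.5 and 44.5 (-1.85 ± 0.18). Plxnd1 is also on this list but was under the brightness limit and so is not in its counts. As given above, it read 219 and 171 in DP and 5.57 and -1.28 in CD8SP. Sema4a rose (0.91 ± 0.20) and Sema7a fell (-0.79 ± 0.16); both lost their calls without DP replicate 2 and without CD8SP replicate 1, with a highest adjusted p of 0.0906 for Sema4a and 0.0867 for Sema7a. The list then had 0 rises and 1 fall without DP replicate 2 and 1 of each without CD8SP replicate 1. Of 17 integrins and adhesion molecules, 5 rose and 2 fell, a share of 41.2%, with a median of 0.19 (0.07 without CD8SP replicate 1). Itgb7, the beta partner of Itgae, rose from 508 and 374 to 1348 and 1169 (1.51 ± 0.20), and Icam1, a ligand of LFA-1, from 119.8 and 106 to 203 and 219 (0.87 ± 0.14). Both chains of the CD103 integrin were thus higher. Without DP replicate 1 the count of rises was 3, and without DP replicate 2 or CD8SP replicate 1 the count of falls was 1.

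The CD8 and cytotoxic lineage list had 8 rises and 2 falls among 14 tested, a share of 71.4% beside 19.8% of all genes tested. Its median was 1.89 (1.13 without CD8SP replicate 2), and the falls were Cd8a (-0.98 ± 0.18) and Cd8b1 (-0.69 ± 0.13). Without DP replicate 2 the falls numbered 0, with adjusted p = 0.0599 for Cd8a and 0.0577 for Cd8b1. Cst7, cystatin F of cytotoxic granules, read 9.82 and 2.18 in DP and 121 and 152 in CD8SP, and the stages were far apart. Cst7 and Il2rb were dim in DP and passed the brightness limit through their later stages. This favours rises in the list and a higher median. Ccl5, a chemokine stored by memory-type CD8 cells, read 22.8 and 33.7 in DP and 57.0 and 451 in CD8SP. The call of Ccl5 (2.33 ± 0.72, adjusted p = 0.0495) was lost without CD8SP replicate 2, where the change was 0.90 (adjusted p = 0.147), without DP replicate 1 (2.10, adjusted p = 0.22) and without DP replicate 2 (2.57, adjusted p = 0.138). Prf1 (perforin) changed by -0.57, Gzmb by 0.36 and Runx3 by 0.51, none of them called. Runx3, the factor that fixes the CD8 lineage, read 228 and 227 in DP and 363 and 295 in CD8SP (SE 0.18, adjusted p = 0.0815). The adjusted p of Runx3 was 0.0164 with the replicate block, and its other probe changed by -0.21. The CD4 lineage list had 0 rises and 2 falls of 5 tested, a share of 40%. The falls were in Gata3 (864 and 872 in DP, 339.7 and 450.3 in CD8SP; -1.14 ± 0.15) and Tox (1031 and 919 in DP, 479 and 373 in CD8SP; -1.19 ± 0.16), factors needed for the CD4 lineage. With the replicate block, or without CD4intCD8+ replicate 1, CD4intCD8+ replicate 2 or CD8SP replicate 2, this list had 1 rise, the number also found at an unadjusted p under 0.05. Zbtb7b, which encodes the CD4 factor ThPOK, was under the brightness limit at 29.5 and 22.8 in DP and 38.1 and 28.0 in CD8SP. The arrays of the 2 stages overlapped for Zbtb7b.

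Of 16 NK type receptors on the array, 3 were bright enough to test, and all 3 rose: Klrd1, Cd160 and Hcst. The brightness limit is on the mean over all 6 arrays, and Klrd1, dim in DP, passed it through its CD8SP values. In a list of dim genes such a limit favours rises, so this count does not describe the list as a whole. Cd160, a receptor of NK and CD8 T cells, read 32.1 and 37.5 in DP and 236 and 250.2 in CD8SP (2.62 ± 0.17), and its 3 other probes changed by between 2.59 and 2.74. Hcst, the adaptor DAP10, read 217 and 193 in DP and 425 and 337 in CD8SP (0.87 ± 0.20) and lost its call without DP replicate 1, DP replicate 2 or CD8SP replicate 1 (highest adjusted p = 0.103). Markers of gamma delta, NK and NKT cells were measured beside these. Of 6 on the array 3 were tested, 0 of which were called by limma, adjusted or not, and their summed intensity over all 6 was 183 and 164 in DP and 275 and 247 in CD8SP. The part of such cells in the rise of NK type receptors was not tested.

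T cell receptor chains and the signalling proteins next to them were lower or did not pass the test: 0 of 23 rose (0 also at an unadjusted p under 0.05, limma) and 11 fell, with a median of -0.40. Called members made up 47.8% of those tested, beside 19.8% of all genes tested. Cd28, the main costimulatory receptor, read 1556 and 1516 in DP and 653 and 467 in CD8SP (-1.47 ± 0.17, adjusted p = 0.000611). Sla, an adaptor that promotes receptor turnover in DP cells, read 1951 and 2089 in DP and 785 and 823 in CD8SP (-1.32 ± 0.10). The stages did not overlap for either gene, as for all called genes, while the kinase gene Zap70 (-0.14) and the CD3 chain Cd3e (-0.27) were not called. Txk, a Tec family kinase (-0.76 ± 0.15), lost its call without DP replicate 1, DP replicate 2 or CD8SP replicate 2, and Lcp2, the adaptor SLP-76 (-0.73 ± 0.16), without DP replicate 1 or CD8SP replicate 2. With 1 array left out, 7 genes fell where this was DP replicate 1, 5 where it was DP replicate 2 and 6 where it was CD8SP replicate 2.

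Genes induced by receptor signalling split, with 5 rises and 7 falls of 23 and a median of 0.01. Their called share was 52.2%, beside 19.8% of all genes tested. Nr4a3, an orphan nuclear receptor induced by antigen receptor signals, read 33.7 and 31.6 in DP and 191 and 189 in CD8SP (2.35 ± 0.14). Myc, the growth factor-responsive transcription factor, read 43.8 and 27.8 in DP and 201 and 171 in CD8SP (2.23 ± 0.21). Egr3 read 71.0 and 73.3 in DP and 289 and 212 in CD8SP (1.70 ± 0.20), but its other probe changed by -0.05. These rises stood beside a fall of Itm2a, a membrane protein of selected thymocytes, from 3012 and 2408 to 1342 and 895 (-1.29 ± 0.19). Cd5, a receptor whose level follows signal strength, changed by -0.33 ± 0.10 (1678 and 1801 in DP, 1337 and 1429 in CD8SP). The call of Cd5 (adjusted p = 0.0427) was lost whenever 1 DP or 1 CD8SP array was left out. The falls numbered 3 without DP replicate 1 or CD8SP replicate 2 and 2 without DP replicate 2. Of 20 negative regulators and inhibitory receptors, 3 rose and 5 fell, a share of 40%. Pdcd1, the receptor PD-1, rose from 61.0 and 59.2 to 126 and 131 (1.03 ± 0.15), and Sit1, an inhibitory adaptor, fell from 589.9 and 666 to 234 and 266 (-1.31 ± 0.15). Dok2, another inhibitory adaptor, fell by 0.88. Without DP replicate 2 the list had 1 rise; Btla, an inhibitory receptor that rose by 0.95 ± 0.19, was lost there and without CD8SP replicate 1 (highest adjusted p = 0.0686).

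DNA replication genes rose together: 20 of 29 were higher and 0 lower (26 and 0 at an unadjusted p under 0.05, limma), with a median of 0.96. Their called share was 69.0%, beside 19.8% of all genes tested. Cdc6, a loader of the replicative helicase, read 63.4 and 84.7 in DP and 207 and 312 in CD8SP (1.71 ± 0.32, adjusted p = 0.00685). Mcm3, a subunit of that helicase, read 208 and 214 in DP and 489 and 597 in CD8SP (1.33 ± 0.17), and its 4 other probes rose by between 0.84 and 1.48. Gins2, a helicase cofactor, read 49.2 and 61.5 in DP and 140.2 and 237 in CD8SP (1.63 ± 0.30), and Pola1, the polymerase alpha catalytic subunit, 66.4 and 59.9 in DP and 146 and 213 in CD8SP (1.40 ± 0.25). For these genes, as for every called gene that rose, all CD8SP arrays lay above all DP arrays, and CD8SP replicate 2 was the higher of its pair. Pola1 was not called when all its probes were averaged. Without DP replicate 1, the calls of Cdc6 (adjusted p = 0.0617) and Gins2 (0.0531) were lost and the list had 8 rises; it had 13 without DP replicate 2 and 12 without CD8SP replicate 2. Genes of G2 and mitosis were seldom called: 1 of 25 rose (Bub1, 0.70 ± 0.20) and 1 fell (Kif23, -0.58 ± 0.13), a share of 8.0%, with a median of 0.24. With the replicate block 7 rose and 1 fell. The calls of that list were 0 up and 0 down without DP replicate 1 or without CD8SP replicate 2, 0 up and 1 down without DP replicate 2, 2 up without CD8SP replicate 1 and 3 up without either CD4intCD8+ array; the highest adjusted p was 0.205 for Bub1 and 0.103 for Kif23. The median of the list fell below 0 to -0.03 with the actin ratio as a covariate.

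Promoters of replication genes are known to hold sites for E2F factors, and those of interferon-stimulated genes sites for interferon-activated factors. The 250 bases before the start of a gene (RefSeq, GRCm38.p6) were searched on both strands for the words TTTCCCGC, TTTCGCGC, TTTGCCGC and TTTGGCGC, which can overlap each other, and, for interferon-response elements, for a GAAA followed after any 2 bases by another GAAA. The E2F words were found in 611 of 32851 such windows (1.86%) and in 8 of the 25 windows of the tested replication genes, which belonged to 24 of the 29 genes. The paired GAAA words were found in 978 windows (2.98%) and in 11 of the 28 windows of the tested interferon genes, which belonged to 22 of the 28 genes. A match is a description of letters and not a binding site. Members of each list with a match are shown for the genes whose values are given here, with the match in capitals on whichever strand it lies.
Cdc6: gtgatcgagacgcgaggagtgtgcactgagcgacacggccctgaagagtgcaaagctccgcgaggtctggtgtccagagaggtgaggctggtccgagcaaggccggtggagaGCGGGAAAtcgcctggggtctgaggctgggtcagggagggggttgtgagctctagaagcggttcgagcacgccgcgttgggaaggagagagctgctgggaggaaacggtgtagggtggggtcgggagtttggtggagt
Pola1: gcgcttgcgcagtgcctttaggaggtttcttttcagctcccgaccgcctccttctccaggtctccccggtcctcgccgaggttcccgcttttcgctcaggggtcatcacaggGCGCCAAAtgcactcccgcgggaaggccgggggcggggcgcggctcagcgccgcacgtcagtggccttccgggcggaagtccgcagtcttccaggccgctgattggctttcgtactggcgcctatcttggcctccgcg
Ifit1: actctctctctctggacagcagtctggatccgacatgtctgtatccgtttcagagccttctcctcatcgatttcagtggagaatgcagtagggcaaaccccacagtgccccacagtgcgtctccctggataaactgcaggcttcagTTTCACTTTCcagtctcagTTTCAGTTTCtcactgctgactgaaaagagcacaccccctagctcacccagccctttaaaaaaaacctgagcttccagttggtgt
Bst2: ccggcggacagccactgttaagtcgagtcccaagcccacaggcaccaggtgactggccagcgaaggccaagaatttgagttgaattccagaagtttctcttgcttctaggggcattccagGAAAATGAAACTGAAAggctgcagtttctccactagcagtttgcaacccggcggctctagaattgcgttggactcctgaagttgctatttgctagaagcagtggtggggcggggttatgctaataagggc
The windows lie at chr11:98907901-98908150, plus strand (Cdc6), chrX:93632156-93632405, minus strand (Pola1), chr19:34640639-34640888, plus strand (Ifit1) and chr8:71537473-71537722, minus strand (Bst2). Both matches in Bst2 overlap and share a GAAA, and both matches in Ifit1 read on the opposite strand.

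Of 28 interferon-stimulated genes, 9 were higher and 0 lower (18 and 0 at an unadjusted p under 0.05, limma), with a median of 0.75. The called share was 32.1%, beside 19.8% of all genes tested, and 19 were higher with the replicate block. Ifit1, an RNA-binding antiviral protein, read 76.3 and 23.9 in DP and 361 and 196 in CD8SP (2.46 ± 0.48, adjusted p = 0.00824). Irf7, the factor that amplifies type I interferon, read 114 and 66.6 in DP and 371 and 254 in CD8SP (1.75 ± 0.34). Replicate 1 was the higher array of Ifit1 and of Irf7 at both stages. Bst2, tetherin, read 34.8 and 19.6 in DP and 151 and 136 in CD8SP (2.22 ± 0.32), and Samhd1, a dNTP hydrolase, 59.3 and 43.7 in DP and 226 and 322 in CD8SP (2.28 ± 0.21), with other probes of Samhd1 between 0.23 and 2.44. The median was 0.48 without DP replicate 2 and 0.46 without CD8SP replicate 1. Without DP replicate 2 the list had 3 rises, and Ifit1 (adjusted p = 0.0566) and Irf7 (0.0716) were not called; without either CD4intCD8+ array it had 14. Genes of MHC class I presentation gave 10 rises and 2 falls of 18, a share of 66.7%, with a median of 0.50. H2-K1 read 802 and 729 in DP and 1689.5 and 1822 in CD8SP (1.19 ± 0.17), and H2-D1 994 and 899 in DP and 1997 and 2017 in CD8SP (1.08 ± 0.18); 1 of the 5 other probes of H2-D1 went the other way (-0.37). Nlrc5, the class I transactivator, rose from 82.6 and 36.3 to 199 and 177 (1.66 ± 0.33), and Erap1, which trims peptides, from 114 and 90.5 to 212 and 191 (0.95 ± 0.16). The falls were Cd1d1 (-0.77) and Tap2 (-0.39). The list had 6 rises without either DP array and 5 without either CD8SP array, and it had 1 fall without any 1 of the 6 arrays.

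Some genes that mark dendritic cells moved with stage. Of 6 tested markers 5 rose, namely Bst2, H2-Aa, H2-Ab1, H2-Eb1 and Cd74, a share of 83.3% beside 19.8% of all genes tested. Bst2 and H2-Eb1 had DP means under the brightness limit and passed it through their later stages. This favours rises among the tested markers, so the count does not describe the list as a whole. The summed intensity over the 11 markers on the array was 319 and 307 in DP and 639 and 876 in CD8SP. Cd74, the invariant chain of MHC class II, read 29.5 and 33.1 in DP and 110 and 143 in CD8SP (1.82 ± 0.18), and H2-Eb1, a class II beta chain, 17.7 and 15.6 in DP and 60.03 and 109.5 in CD8SP. The log2 change was above 0 for all 6 tested markers, including the 1 not called. Itgax, Flt3, Xcr1 and Siglech, which define dendritic cells and were picked after their values were seen, were under the brightness limit. Itgax read 22.4 and 29.0 in DP and 23.3 and 25.9 in CD8SP. The part of dendritic cells in the rises of class II genes and of Ctss was not tested. Their part in the interferon result, which shares Bst2, was not tested either. Of 5 B cell markers 1 rose, a share of 20% that is near the 19.8% of all genes tested. This was Cd79b, from 31.9 and 34.9 to 68.5 and 66.0 (0.90 ± 0.19), with its call lost without any 1 DP or CD8SP array. Myeloid markers (5 tested) and erythroid markers (2 tested) gave 0 calls by limma, adjusted or not. Of 4 epithelial and stromal markers 1 was called, a share of 25%: Pecam1 fell (-0.90 ± 0.26), a call lost without any 1 DP or CD8SP array.

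D cyclins and regulators of G1 moved both ways, with 5 rises and 7 falls of 18, a share of 66.7%, and a median of -0.25. The rise of Ccnd2 was accompanied by a fall of Ccnd3, the other D cyclin of thymocytes (-1.06). Btg2, an antiproliferative gene, read 1912 and 2142 in DP and 885 and 591 in CD8SP (-1.48 ± 0.22), and Cdkn1b, the cell cycle inhibitor p27, 796 and 822 in DP and 449 and 305 in CD8SP (-1.12 ± 0.17). The list thus held D cyclins that moved in opposite directions, and Cdk6 rose by 0.73. The rises numbered 3 without DP replicate 1 or CD8SP replicate 1 and 2 without DP replicate 2 or CD8SP replicate 2. Among 18 survival and cell death genes, 2 rose and 2 fell, a share of 22.2% that is near the 19.8% of all genes tested. Bcl2, the survival factor of mature T cells, rose from 361 and 313 to 740.3 and 737 (1.12 ± 0.14), and all 4 of its other probes rose. Bcl2l1, which encodes Bcl-xL, the survival factor of DP cells, fell from 297 and 366 to 73.1 and 111 (-1.81 ± 0.21). Fas, a death receptor, fell from 291 and 309.7 to 116 and 85.4 (-1.54 ± 0.17). Traf1 rose (0.88 ± 0.20) but lost its call without any 1 DP or CD8SP array (highest adjusted p = 0.0948), and Bcl2l1 was not called (adjusted p = 0.107) when all its probes were averaged. The list had 1 rise without DP replicate 1, DP replicate 2 or CD8SP replicate 2.

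Of 36 thymocyte transcription factors, 16 fell and 5 rose, a share of 58.3% beside 19.8% of all genes tested, with a median of -0.43. Myb read 1629 and 1525 in DP and 472 and 553 in CD8SP (-1.62 ± 0.12, adjusted p = 8.86e-05), and Gfi1, a repressor, 444 and 392.2 in DP and 134 and 172 in CD8SP (-1.42 ± 0.18). Together with Ets2, Gata3 and Tox these were all factors with known roles in earlier thymocytes, while Klf2 and Foxo1, factors of quiescence and exit, were among the 5 that rose. Without DP replicate 1, DP replicate 2 or CD8SP replicate 1 the rises numbered 3. Of 17 Notch pathway genes 5 rose and 4 fell, a share of 52.9%. Lfng, a Fringe glycosyltransferase that modifies Notch, read 10.9 and 5.09 in DP and 97.3 and 75.8 in CD8SP, and its relative Mfng rose from 103 and 102 to 239.6 and 234 (1.16 ± 0.13). Dtx1, a Notch regulator, rose from 192 and 171 to 705 and 535 (1.73 ± 0.17), with its other probe at 0.38, while Notch3 fell from 164 and 170.4 to 73.2 and 89.6. The counts were 3 up and 2 down without DP replicate 1 or CD8SP replicate 2. Of 18 NF-kappaB genes 5 rose and 3 fell, a called share of 44.4% beside 19.8% of all genes tested. Bcl3, an atypical inhibitor that acts with NF-kappaB in the nucleus, read 12.99 and 11.9 in DP and 76.1 and 72.1 in CD8SP, and Tnfrsf18, the receptor GITR, 169 and 213 in DP and 398 and 398 in CD8SP (1.05 ± 0.17). Tnfaip3, the inhibitor A20, fell from 597 and 385 to 237 and 222 (-1.04 ± 0.21) but not without DP replicate 1 (adjusted p = 0.0625), where the list had 1 fall; it had 3 rises without DP replicate 2.

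Of 18 cytokine receptors and SOCS genes, 6 rose and 4 fell, a share of 55.6% beside 19.8% of all genes tested. Beside Il7r and Il2rb, which rose, Il12rb1, a chain of the interleukin-12 receptor, fell from 184 and 174 to 45.0 and 55.3 (-1.73 ± 0.16), and Il4ra and Socs1 changed by -1.27 and -1.15. Ifngr1, given above, was the fourth member that fell. The 8 Gimap genes, GTPases of lymphocyte survival, went both ways, with 3 rises and 2 falls, a share of 62.5%. Gimap3 rose from 305 and 243 to 806 and 711 (1.46 ± 0.18) and Gimap9 fell from 856 and 883 to 451 and 412 (-1.003 ± 0.14). Without DP replicate 1, DP replicate 2 or CD8SP replicate 2 the Gimap counts were 1 up and 1 down, and without CD8SP replicate 1 they were 1 up and 3 down. Of 20 glycosyltransferases 2 rose and 6 fell, a share of 40%. St3gal2, a sialyltransferase, fell from 116 and 104 to 21.9 and 21.7 (-2.07 ± 0.17), Mgat5, which branches N-glycans, fell from 192 and 202 to 83.6 and 97.3 (-1.08 ± 0.15), and B4galnt1, a ganglioside synthase, rose from 307 and 267 to 948 and 765 (1.55 ± 0.19), with its other probe at -0.09. The list had 1 rise without any 1 of the 6 arrays and 3 falls without DP replicate 2.

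Among metabolic and housekeeping lists, most members were not called, except for glycolysis, where 57.1% of tested members were. Cholesterol synthesis gave 5 rises and 0 falls of 18, a share of 27.8% beside 19.8% for all genes, with a median of 0.39. It gave 10 rises and 1 fall at an unadjusted p under 0.05 (limma), and 8 rises and 1 fall with the replicate block. Idi1, an isoprenoid isomerase, read 84.4 and 86.9 in DP and 183 and 274 in CD8SP (1.33 ± 0.24). The list had 1 rise without DP replicate 1, DP replicate 2 or CD8SP replicate 2. Glycolysis gave 6 rises and 2 falls of 14, with a median of 0.20: Tpi1, triosephosphate isomerase, rose from 224 and 248 to 502 and 737 (1.35 ± 0.20) and Eno3 from 39.8 and 28.6 to 132 and 92.6 (1.55 ± 0.21), against the fall of Ldhb. The list had 3 rises without the brightness limit, after quantile normalization, with probes averaged, without the intensity trend or with the actin ratio. It had 3 rises without DP replicate 1, CD8SP replicate 1 or CD8SP replicate 2, and 1 fall without either DP array or without CD8SP replicate 1. Of 25 cytosolic ribosomal protein genes 6 rose and 0 fell (6 and 1 at an unadjusted p under 0.05), a share of 24.0% beside 19.8% for all genes, with a median of -0.03, and Rpl14 led them (116 and 127 in DP, 275 and 389 in CD8SP; 1.39 ± 0.18). The median of this list and its called members thus differ in sign, and the median was 0.10 after quantile normalization. It had 2 rises without DP replicate 2 and 3 without CD8SP replicate 2. Of 25 respiratory chain genes 5 rose and 0 fell (7 and 1 at an unadjusted p under 0.05), with a median of 0.13 (0.05 without DP replicate 1); the called share of 20% was near the 19.8% of all genes tested. The list had 1 rise with probes averaged or without the intensity trend. With the replicate block 6 rose and 1 fell, and the list had 1 rise without DP replicate 1, DP replicate 2 or CD8SP replicate 2 and 2 without CD8SP replicate 1.

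**Figure D3:**
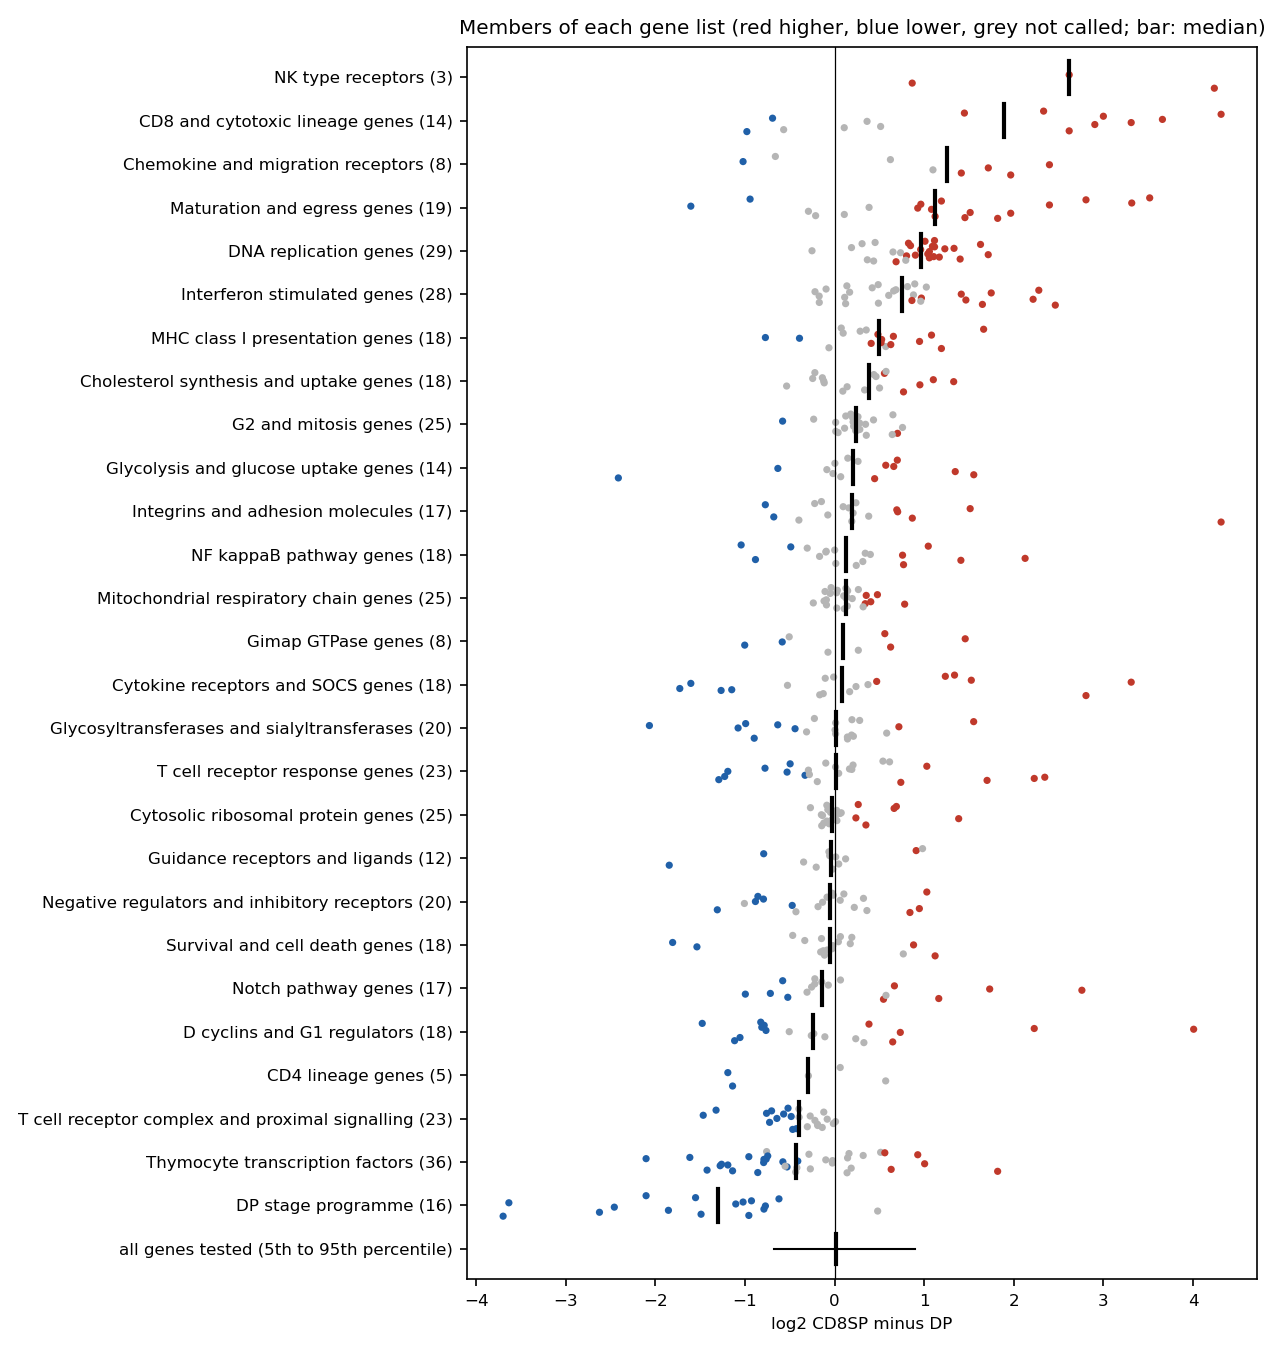
Log2 change from DP to CD8SP of every tested member of the 27 functional gene lists, ordered by list median (black bars); the number tested is in brackets, red and blue points were called higher and lower and grey points were not called. The bottom row shows the 5th to 95th percentile of all genes tested; the DP stage programme lies at the low end (median -1.30) and the cytotoxic, migration, maturation and replication lists at the high end.

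The CD4intCD8+ arrays were used to ask how much of the span had been covered at that stage. For each called gene the log2 change from DP to CD4intCD8+ was expressed as a percent of the change from DP to CD8SP. The median was 73.5% (quartiles 55.4% and 90.7%), 74.5% for genes that rose and 71.6% for genes that fell. More than 50% of the span had been covered for 1745 of the 2166 genes (80.6%), fewer than 25% for 94 genes and more than 100% for 345 genes. These percents use the same DP and CD8SP arrays as the calls and are a description. The departure of CD4intCD8+ from the midpoint was tested gene by gene: 1 gene was called (0.00916%, limma, Benjamini-Hochberg), against 1389 genes at an unadjusted p under 0.05. In the main fit its estimate is uncorrelated with that of the span. Both tests share 1 estimate of spread per gene, so they are not independent. With the replicate block 215 genes were called, of which 133 were also called over the span; 129 of these lay nearer to CD8SP and 4 nearer to DP. The actin ratio was 2.37 and 3.47 on the CD4intCD8+ arrays, and its part in these counts was tested only by adding it to the fit. Without CD4intCD8+ replicate 1 the count was 61 and without CD4intCD8+ replicate 2 it was 3, and it was 6 in the fit with the actin ratio added. It was 0 without either DP array or CD8SP replicate 1.

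The gene called off the midpoint was Nr4a3, which read 209 and 185 at CD4intCD8+, at the level of CD8SP (191 and 189) and well above DP (33.7 and 31.6), 1.22 ± 0.12 above the midpoint on the log2 scale (adjusted p = 0.0449). Rag1 had fallen to 101 and 134 at CD4intCD8+, 1.26 ± 0.20 below the midpoint, and Cd7 had risen to 284 and 283 (0.94 ± 0.16 above). Cdc6 was already at 194 and 406, with CD4intCD8+ covering 108% of its span. For these genes most of the change was already present at the CD4intCD8+ stage, but only the departure of Nr4a3 from the midpoint passed the test. 2410018L13Rik, at 40.5 and 63.6, was the fifth of this kind, and its span call was lost without DP replicate 1 or CD8SP replicate 1 (highest adjusted p = 0.124). Cdc6 lost its span call without DP replicate 1. At the other end, Samhd1 read 68.3 and 55.4 at CD4intCD8+, near the DP arrays and covering 10.8% of its span, and Btbd11 read 30.9 and 20.8 against 23.7 and 21.5 in DP and 116 and 112 in CD8SP. Klrd1 read 37.0 and 44.0 at CD4intCD8+, well below CD8SP (275 and 485). These genes rose mainly between CD4intCD8+ and CD8SP, and none of their departures from the midpoint was called. Ccl5 (21.1 and 34.8) and Hopx (35.8 and 17.4) were at their DP level at CD4intCD8+, but Hopx, like Ccl5, differed between the CD8SP arrays (68.4 and 140.2) and lost its span call without DP replicate 1 or CD8SP replicate 2 (highest adjusted p = 0.0871).

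**Figure D4:**
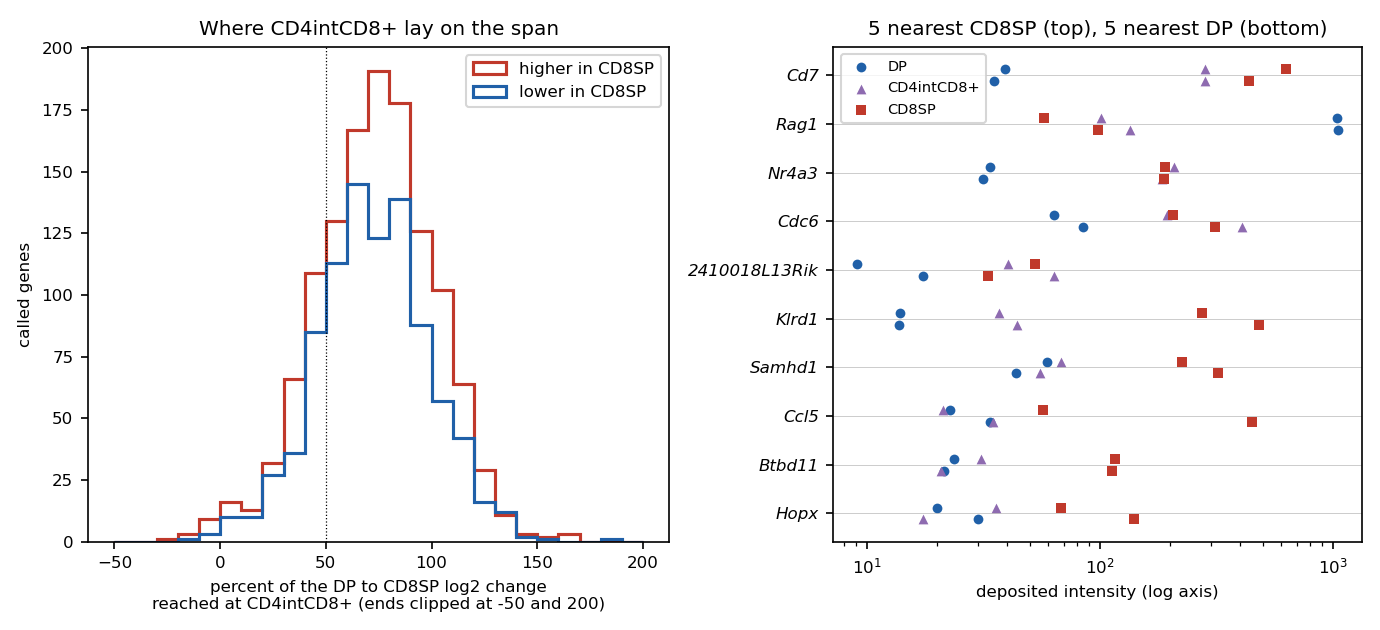
Left: number of called genes by the percent of their DP to CD8SP change that was reached at CD4intCD8+, for genes higher (red) and lower (blue) in CD8SP, with a dotted line at 50%; most genes of both colours lie to the right of it. Right: intensity (log axis) on all 6 arrays of the 5 genes whose CD4intCD8+ level lay furthest towards CD8SP (top) and the 5 furthest towards DP (bottom); the triangles lie near or among the squares at the top and near or among the circles at the bottom, except that those of Cd7 (284 and 283) lie below both squares and those of Klrd1 (37.0 and 44.0) above both circles.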

How the data were processed

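Biotin-labelled RNA of sorted thymocytes was measured on 6 arrays, 2 for each of 3 stages, per the labels. The authors deposited linear intensities on a common scale; the software and normalization that made them are not given in the sources used here. Of 45037 probes, 34945 carried 1 gene symbol, 932 several and 9160 none; only the first were named. Intensities below 0 (3.60%) were set to 0, 5.84 (the 10th percentile of positive values) was added and log2 taken, so folds of dim genes are understated. The probe with the highest mean stood for a gene, and genes whose log2 mean lay below 5.19 (30.8 intensity units, the 40th percentile) were left untested. This mean is over all 6 arrays, so a gene dim at 1 stage was tested only if it was bright at another. Such a limit favours called changes in lists of dim genes. Stage differences were tested with limma 3.58.1 (R 4.3.3; lmFit, eBayes with intensity trend) over all 6 arrays, with 3 residual and 6.05 prior degrees of freedom and Benjamini-Hochberg adjustment over the 10916 genes tested; the median standard error was 0.17 (log2), and 2 arrays a stage limit the precision. The fit was tested on simulated data. Errors given as ± are standard errors of the fit, each over 2 arrays a stage.

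Replicate numbers in the titles were taken as pairing the arrays, since the deviations from stage means correlated between stages at 0.26, 0.21 and 0.30; the main fit has no replicate block, and the block is an alternative. The members and gene lists were chosen with earlier results of these data known, so counts over a list are descriptions. Genes named were the 10 largest rises and 10 largest falls with the lower stage at a mean of at least 20, the 6 genes in each direction with the smallest p among those with means under 20 at one stage and at least 100 at the other, up to 4 called members with the largest change per list, the 5 furthest from the midpoint each way, and anchor genes of the stages. Ccnd3, Cd1d1, Cd3e, Cdk6, Flt3, Foxo1, Gzmb, H2-Aa, Il4ra, Itgax, Prf1, Ramp1, Siglech, Socs1, Tap2, Xcr1 and Zap70 were added after their values were seen. Promoter windows came from RefSeq (GRCm38.p6).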

Additional observations from a re-analysis of the deposited data

How the results depend on the processing

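With the replicate block, 3277 genes were called over the span (1427 lower), and 215 off the midpoint; on the 4 compared arrays alone with the replicate block, 3651 were called, 2033 higher and 1618 lower. Leaving out 1 array gave 1018 to 2345 called genes, 605 to 1369 higher and 403 to 979 lower, and 0 to 61 off the midpoint. The count off the midpoint was 0 (limma) with a pseudocount of 32, no filter, quantile normalization, probes averaged per gene or no intensity trend, and 6 when the actin ratio was a covariate. Other settings kept the span counts within 1.5 times. Of 135 named genes that were called, 102 were tested in every setting, and 67 of these kept their call in all; the other 33 fell under the brightness limit of 1 or more settings. Wherever tested, 94 of the 135 kept their call and 0 changed sign; the replicate block ended none of their calls and added that of Runx3. Medians of several lists that lay next to 0 changed sign between settings. Other signs that turned were those of Ptcra (-0.093 with the actin ratio; -0.23 to 1.19 with 1 array left out), Cd69 (-0.29 to 0.31 with 1 array left out, including -0.18 without DP replicate 2), and the medians of G2 and mitosis genes (-0.033 with the actin ratio; -0.043 to 0.51 with 1 array left out), NF-kappaB genes (-0.034 with probes averaged), and, with 1 array left out, myeloid markers (-0.33 to 0.49) and gamma delta, NK and NKT markers (-0.16 to 0.34). The cause was not tested. With 2 arrays a stage, 7277 genes under the brightness limit and no record of the upstream normalization, small changes and dim genes are the least certain.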

Other observations

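Some gene groups differed between the replicate numbers at every stage; these were chosen after their values were seen and have no test. Interferon-stimulated genes were higher on replicate 1 at all 3 stages for 23 of 28 members (82.1%), against 18.1% of all genes tested. DNA replication genes were higher on replicate 2 at all 3 stages for 21 of 29 members (72.4%) and G2 and mitosis genes for 19 of 25 (76.0%), against 20.7% of all genes. The change from DP to CD8SP was nonetheless present within each pair for interferon-stimulated genes (medians 0.72 and 0.70) and replication genes (0.83 and 1.14), while for G2 and mitosis genes it was 0.03 in pair 1 and 0.48 in pair 2. Fos, an immediate early gene, read 482 on replicate 1 and 44.9 on replicate 2 of DP, 411 and 110.04 of CD4intCD8+, and 374 and 132 of CD8SP. Junb, its partner in the AP-1 factor, read 247 and 54.7, 157 and 64.7, and 143 and 63.6 in the same order. Replicate 1 was thus the higher array of Fos and Junb at every stage.

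Of the 10916 genes tested, the CD8SP arrays were at least 2-fold apart for 76, 39 of them higher on replicate 2. The DP arrays were so for 54 genes, 17 of them higher on replicate 2. Among genes picked for this difference after their values were seen, Tbx21, the factor T-bet, read 13.4 and 60.1 on the CD8SP arrays, and Cxcr3, a chemokine receptor, 34.7 and 131. Il18r1, an interleukin-18 receptor chain, read 38.2 and 95.5. Tbx21 and Il18r1 were under the brightness limit and so are not in the counts above. Genes of cytotoxic cells went both ways. Higher on replicate 1, by less than 2-fold, were Eomes, a factor related to T-bet (53.7 and 29.6), Nkg7 (1250.1 and 1105) and Ctsw (1351 and 1055). Higher on replicate 2 were Ccl5 (57.0 and 451), Klrd1 (275 and 485), Cst7 (121 and 152), Il2rb (173 and 189) and Cd160 (236 and 250.2).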
